A study of Mus musculus with 8 samples.

Results

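Leukocytes leave the blood through a sequence of adhesive contacts with the vessel wall. Selectins on activated endothelium and platelets capture leukocytes through carbohydrate-bearing ligands and let them roll, members of the immunoglobulin superfamily then hold them through leukocyte integrins, and junction molecules between endothelial cells take part in their passage into the tissue. In the infarcted heart, these contacts are known for the early recruitment of neutrophils and monocytes. The expression of 9 genes of this cascade was examined in the ventricles of mice 24 hours after myocardial infarction (MI). They are the selectins Sele and Selp, the selectin ligand Selplg, the immunoglobulin-family adhesion molecules Icam1, Icam2, Vcam1 and Pecam1, and the junction molecules Cdh5 and Esam. The genes were chosen by name, with earlier results of these data known. The array carried RefSeq transcripts of each of them, with 2 probes for Selplg and for Vcam1 and 1 probe for every other gene, and each gene was represented by its brightest probe among those detected well above background on 4 or more of the 8 arrays. All 9 genes had such a probe, out of 15156 genes with a retained RefSeq probe.

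The MI group comprised 4 male mice with a C57BL\6 genetic background in which the anterior interventricular artery was permanently occluded. The sham group comprised 4 male mice of the same background that underwent the same surgery without ligation of the artery. RNA of the ventricles was taken 24 hours after surgery, labeled in 1 colour and hybridised to 1 SurePrint G3 array per mouse. Tissue was homogenised without a cell sort, and no source used here describes a separation of the infarct from remote muscle. A difference between the groups can therefore reflect more or fewer cells of a type as well as more or less RNA per cell, which cannot be told apart here. All 7 markers of cardiomyocytes and all 14 markers of endothelial cells that were examined were well above background on all 8 arrays.

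Upstream sequences are shown for Sele, Selp and Icam1, since these genes were all higher in MI mice and the RefSeq promoter table used here (GRCm38.p6) held them. Selplg, Icam2, Vcam1, Pecam1, Cdh5 and Esam were not matched in that table. Each run below gives the 250 bases before the annotated start of the gene, 5′ to 3′ on the plus strand, at chr1:164047984-164048233 for Sele, chr1:164115014-164115263 for Selp and chr9:21015690-21015939 for Icam1. Capitals mark matches to 4 searched motifs on either strand: the NF-kB consensus, the AP-1 site TGANTCA, the TATA box TATAAA and the interferon-gamma-activated sequence TTCNNNGAA.
Sele: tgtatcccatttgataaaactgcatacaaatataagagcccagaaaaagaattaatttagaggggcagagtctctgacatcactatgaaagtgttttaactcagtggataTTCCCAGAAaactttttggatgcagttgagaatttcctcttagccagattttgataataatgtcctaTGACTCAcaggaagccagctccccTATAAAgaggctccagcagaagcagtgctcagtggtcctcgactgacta
Selp: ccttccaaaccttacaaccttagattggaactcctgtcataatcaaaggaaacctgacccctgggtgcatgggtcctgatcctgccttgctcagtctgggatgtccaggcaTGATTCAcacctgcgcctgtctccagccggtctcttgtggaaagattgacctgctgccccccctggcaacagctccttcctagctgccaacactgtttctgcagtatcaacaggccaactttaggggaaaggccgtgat
Icam1: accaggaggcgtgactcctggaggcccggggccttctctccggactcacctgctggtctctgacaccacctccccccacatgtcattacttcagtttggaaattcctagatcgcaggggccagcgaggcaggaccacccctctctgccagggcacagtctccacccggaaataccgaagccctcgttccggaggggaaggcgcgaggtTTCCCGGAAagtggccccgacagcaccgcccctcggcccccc
In Sele, an AP-1 site lay at positions -73 to -67, a TATA box at -49 to -44 and an interferon-gamma-activated sequence at -140 to -132, counted back from the start. In Selp, an AP-1 site lay at -139 to -133. In Icam1, an interferon-gamma-activated sequence lay at -42 to -34. No stretch of these 3 windows matched the NF-kB consensus in full. Sites that differ from it by a letter were not searched, so such sites may be present. Among the windows of the same length before all 32851 starts in the table, 6.75% held the AP-1 site, 12.4% the TATA box, 7.02% the interferon-gamma-activated sequence and 7.25% the NF-kB consensus. The matches describe letters in a window and are not evidence of binding.

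The share of spots well above background was 58.6% to 66.4% per array. Within a group, the correlation between arrays lay between 0.990 and 0.995 for MI and between 0.990 and 0.992 for sham. Levels are given as log2 values on the spike-in scale of the authors, and a level is compared between mice for the same probe only. A fold change is a difference of group means on this scale, tested in limma with the p adjusted over 34038 retained probes. With an adjusted p under 0.05, 6.3% of them (2144) were higher after MI and 1.31% (446) were lower. When each array was scaled to its 75th percentile instead, 2963 probes (8.7%) were higher and 3010 were lower. The median log2 difference over all retained probes was 0.12 on the spike-in scale and -0.02 after scaling to the 75th percentile, so that each log2 fold change below includes a shift of about that size.

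Of the 9 adhesion genes, 4 were higher in MI mice with an adjusted p under 0.05: Selp, Sele, Selplg and Icam1. On this scale, all 4 were also over 2-fold higher, which 3.07% of all retained probes were. No member was lower in limma, at an adjusted or an unadjusted p under 0.05, or in significance analysis of microarrays, which called the same number of members higher. For 5 of the 9 members, the 4 called and Vcam1, every MI mouse was above every sham mouse, and 8.44% of the 33865 probes with a value on all arrays shared this property. Sele was retained through the MI mice alone, and of the 8 members well above background on all 8 arrays, 3 were called. The median log2 fold change of the 9 members was 0.65, and that of these 8 was 0.63.

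**Figure D1:**
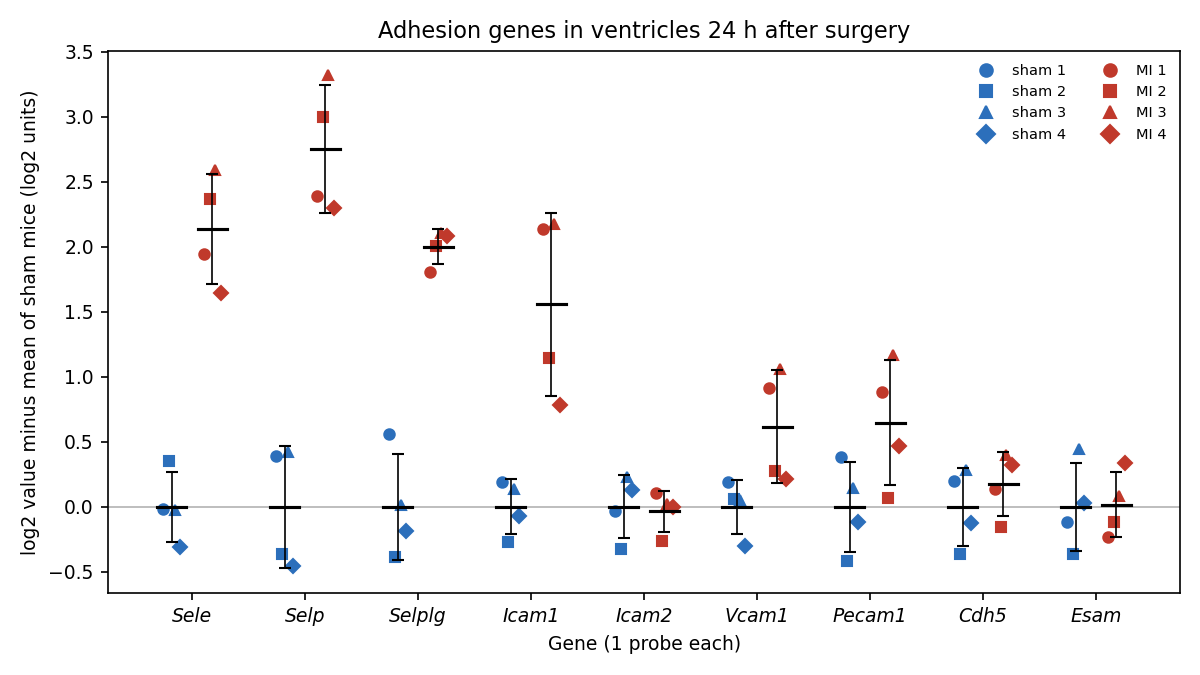
Log2 value of each mouse minus the mean of the sham mice for the same probe (log2 units), for the 9 adhesion genes. Blue symbols are sham mice and red symbols MI mice, with the shape giving the replicate. Black bars show the group mean and its SD (n = 4). Sele, Selp, Selplg and Icam1 of all MI mice lie above all sham mice, while Icam2, Cdh5 and Esam overlap.

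Selp encodes P-selectin, which is stored in granules of endothelial cells and platelets and brought to the surface on activation. The log2 values of Selp were 9.32, 9.93, 10.25 and 9.23 in MI mice 1 to 4 and 7.32, 6.57, 7.36 and 6.48 in sham mice 1 to 4. MI mice 2 and 3 were the highest, and the lowest MI mouse was above the highest sham mouse by more than the range of the sham mice. Selp rose by 2.75 (SE 0.25) on the log2 scale, a fold change of 6.72, the largest among the 9 members on this scale (limma, adjusted p = 2.28e-08). The log2 difference was 2.15 with normexp background correction and 1.68 with refitted spike-in constants, and passed in both. Its probe was printed in 10 spots, which were averaged. Within each of the 2 array rows, which held 2 mice of either group, the log2 difference was 2.68 in row 1 and 2.82 in row 2.

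Sele encodes E-selectin, which endothelial cells make anew when cytokines activate them. The log2 values were 6.36, 6.78, 7.01 and 6.06 in MI mice and 4.39, 4.76, 4.39 and 4.10 in the sham mice. As with Selp, MI mice 2 and 3 were the highest and MI mouse 4 the lowest of its group. The probe was dim. It was well above background in 4 of 4 MI mice and in 1 of 4 sham mice, so that it was retained through the MI group, with processed signals of 60.7 to 119 intensity units in MI mice and 5.03 to 12.6 in the sham mice. On the spike-in scale, the log2 difference was 2.14 (SE 0.23; limma, adjusted p = 2.42e-07), with 1.99 in row 1 and 2.28 in row 2. Since most sham signals were near background, its size depended on the constant added before the log, and no fold change is given. The log2 difference was 3.13 with no constant and 0.42 with constants refitted to the spike-ins (limma, adjusted p = 0.0299). It was 0.95 with normexp background correction, which added an offset of 50 and was followed by quantile normalization.

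Selplg encodes PSGL-1, the ligand through which leukocytes bind P-selectin. Its log2 values were 10.21, 10.41, 10.50 and 10.49 in MI mice and 8.96, 8.02, 8.41 and 8.21 in the sham mice. The 4 MI mice were close together (SD 0.14, n = 4), whereas sham mouse 1 lay above the other sham mice. Selplg rose by 2.00 (SE 0.22) on the log2 scale, a fold change of 4.00 (limma, adjusted p = 3.73e-07). Its dimmer probe gave a log2 fold change of 1.51 (SE 0.22, adjusted p = 3.28e-05), and its groups did not overlap either. The log2 difference of the brighter probe was 1.82 in row 1 and 2.18 in row 2.

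Icam1 encodes the endothelial ligand of the leukocyte beta2 integrins. The log2 values were 9.03, 8.04, 9.07 and 7.68 in MI mice and 7.09, 6.63, 7.04 and 6.83 in the sham mice. MI mice 1 and 3 stood about a log2 unit or more above MI mice 2 and 4, so that the SD of the MI group was 0.70 and that of the sham group 0.21 (n = 4 each). Icam1 rose by 1.56 (SE 0.26) on the log2 scale, a fold change of 2.94 (limma, adjusted p = 0.000207). The log2 difference was 1.67 in row 1 and 1.44 in row 2. The call was lost with the refitted spike-in constants, where the log2 difference was 0.82 (adjusted p = 0.07), and with the methods' t-test after Benjamini-Hochberg adjustment over all probes (adjusted p = 0.112).

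Vcam1 encodes the ligand of the alpha4 integrins that monocytes and lymphocytes carry. Its log2 values were 10.79, 10.15, 10.94 and 10.09 in MI mice and 10.07, 9.94, 9.93 and 9.58 in the sham mice. MI mice 1 and 3 were again the highest, and the gap between the lowest MI mouse and the highest sham mouse was narrow. The log2 difference of 0.62 (SE 0.23) did not pass in limma (adjusted p = 0.104), while the exact two-sided permutation test of this single value gave p = 0.0286, the smallest that 4 against 4 mice allow. The dimmer of the 2 Vcam1 probes had log2 values of 7.83, 7.62, 8.09 and 7.61 in MI mice and 6.96, 6.96, 6.79 and 6.71 in the sham mice. With this probe, the log2 fold change was 0.93 (SE 0.20, adjusted p = 0.00367). The 2 probes of Vcam1 thus had the same direction but fell on different sides of the threshold.

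Icam2 encodes a beta2 integrin ligand that resting endothelium carries. Its log2 values were 13.05, 12.69, 12.97 and 12.94 in MI mice and 12.92, 12.62, 13.18 and 13.08 in the sham mice. The groups overlapped, and the log2 difference was -0.03 with a 95% interval from -0.46 to 0.39 (limma, adjusted p = 0.951). The interval leaves out a 2-fold difference in either direction.

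Pecam1 encodes CD31, which lies at endothelial junctions and is also found on platelets and leukocytes. The log2 values were 10.25, 9.43, 10.53 and 9.83 in MI mice and 9.75, 8.95, 9.51 and 9.25 in the sham mice. MI mice 1, 3 and 4 were above all sham mice, whereas MI mouse 2 was within their range. The log2 difference of 0.65 (SE 0.24, 95% interval 0.15 to 1.14) did not pass in limma (adjusted p = 0.109), and the exact permutation test gave p = 0.0857. It passed when arrays were scaled to the 75th percentile, where the log2 difference was 0.53 (adjusted p = 0.0389), with quantile normalization (0.0429) and normexp (0.0251), and without MI mouse 2, where it was 0.84 (adjusted p = 0.0319).

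Cdh5 encodes VE-cadherin, the cadherin of endothelial adherens junctions. Its log2 values were 12.02, 11.73, 12.29 and 12.21 in MI mice and 12.09, 11.53, 12.17 and 11.76 in the sham mice, and the groups overlapped. The log2 difference was 0.17 with a 95% interval from -0.27 to 0.62 (limma, adjusted p = 0.719). Esam encodes an adhesion molecule of endothelial tight junctions and platelets. Its log2 values were 11.87, 11.99, 12.19 and 12.44 in MI mice and 11.99, 11.74, 12.55 and 12.14 in the sham mice, which overlapped too. The log2 difference was 0.02 with a 95% interval from -0.43 to 0.47 (limma, adjusted p = 0.975). As for Icam2, neither interval reached a 2-fold difference.

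**Figure D2:**
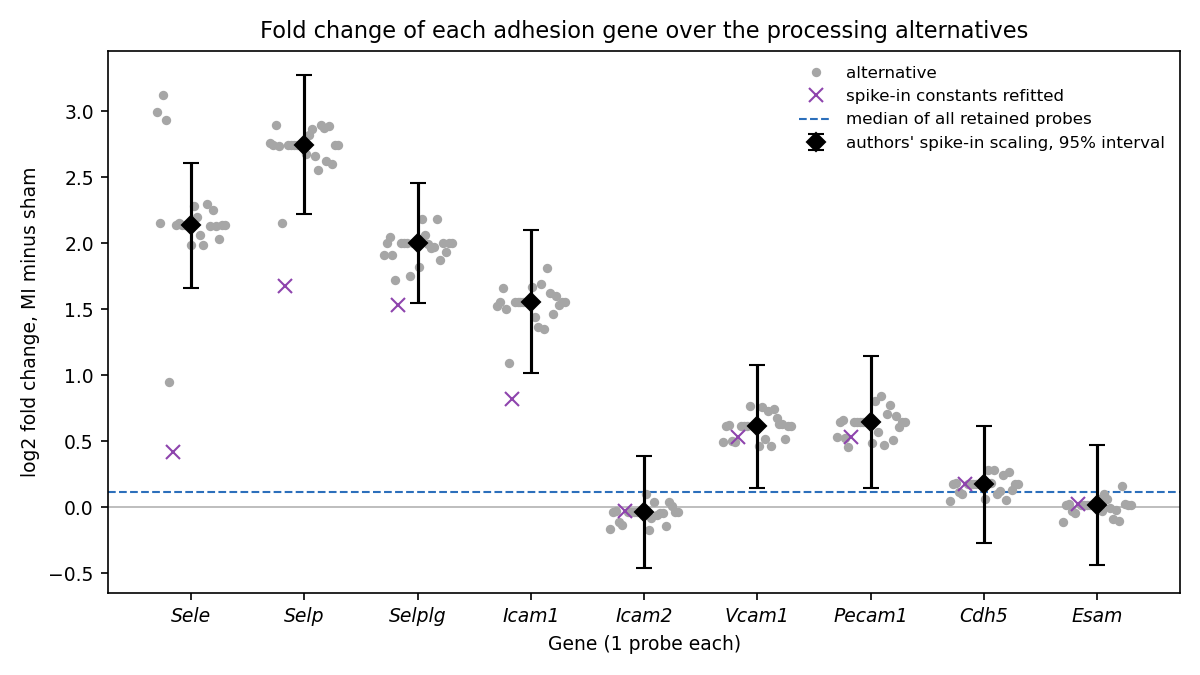
Log2 fold change (MI minus sham) of the 9 adhesion genes. Black diamonds with bars give the value on the spike-in scale of the authors with its 95% interval, grey points the other processing alternatives, crosses the values with refitted spike-in constants, and the dashed line the median of all retained probes (0.12). Sele spreads from 0.42 to 3.13, Selplg from 1.53 to 2.19 and Icam2 from -0.17 to 0.10.

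Scaling to the 75th percentile took the shift of the median probe out, and it also added no constant before the log. Its values therefore differ from those above in both respects. With the spike-in shift and no constant, the log2 fold change was 2.90 for Selp and 3.13 for Sele. After scaling to the 75th percentile, the log2 fold changes were 2.76 for Selp, 2.99 for Sele, 1.92 for Selplg and 1.53 for Icam1, and 0.49 for Vcam1. That of Pecam1 was 0.53 and passed in limma (adjusted p = 0.0389). Those of Cdh5, Esam and Icam2 were 0.05, -0.11 and -0.16. The sign for Esam was thus positive on the spike-in scale and negative here.

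To ask whether the other members moved apart from an endothelial junction gene in the same mouse, the log2 value of Cdh5 was subtracted from that of each other member, in a comparison added after the values were seen. The difference between the groups was then 2.57 for Selp, 1.96 for Sele, 1.83 for Selplg and 1.38 for Icam1. Each had an exact permutation p of 0.0286, or 0.0571 after Benjamini-Hochberg adjustment over the 8 genes compared, which is the smallest adjusted value that 4 genes at the lowest p can reach here. The difference relative to Cdh5 was 0.47 for Pecam1 (exact permutation p = 0.0571), 0.44 for Vcam1 (0.114), -0.16 for Esam (0.314) and -0.21 for Icam2 (0.171). No gene passed the adjusted threshold in this comparison. Since Cdh5 itself differed by only 0.17 between the groups, these differences stayed close to those without subtraction and add little to them. Sele was retained through the MI mice alone, and its value here also depends on the added constant.

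The partners of these molecules were described from 5 lists with 52 retained genes, of which 16 were higher and none was lower with an adjusted p under 0.05. At an unadjusted p under 0.05 in limma, 25 were higher and none was lower, where 14.8% of all retained probes were higher and 5.07% lower. Significance analysis of microarrays called 18 higher and none lower, where it called 9.17% of the probes with a value on all arrays higher and 2.27% lower. After scaling to the 75th percentile, however, the sulfotransferase Tpst1 was called lower at -0.37 and the tight junction gene Tjp1 at -0.44 (limma, adjusted p = 0.0343 and 0.0218). Both were named after their values were seen, and this scaling called 3010 of all 34038 retained probes lower. On the leukocyte side, 5 of 11 selectin ligands and counter-receptors were higher, with a median log2 fold change of 0.71 against 0.12 for all probes. Itgax, the alpha chain of a beta2 integrin of myeloid cells, rose by 1.56 (SE 0.24, adjusted p = 6.13e-05), or by 0.78 with the refitted spike-in constants (adjusted p = 0.0299). Cd44, a hyaluronan receptor that can serve as an E-selectin ligand, rose by 1.37 (SE 0.22, adjusted p = 0.000108). Itgb2 and Itgb1, the integrin beta2 and beta1 chains, also passed. Among the 6 that did not pass was Itgam, the alpha chain of another beta2 integrin, at 0.14. This value rests on its brightest probe alone, which had a mean of 14.73 in the sham mice. The authors list Itgam among their differentially expressed transcripts, without naming the probe.

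Of the 9 enzymes that build selectin ligands, 2 were higher, and both were fucosyltransferases that complete the sialyl Lewis x type of ligand. Fut7 measured 5.89, 5.91, 5.91 and 6.02 in MI mice and 5.44, 5.27, 4.39 and 4.87 in the sham mice, and rose by 0.94 (SE 0.23, adjusted p = 0.00767). Fut4 rose by 0.92 (SE 0.22, adjusted p = 0.00708). Both probes were dim, and with the refitted spike-in constants neither passed, as none of the 9 enzymes did. The median of the list was 0.25.

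Among 14 retained junction and transmigration genes, 1 was higher. This was Pvr, a nectin-like receptor, which measured 10.76, 10.24, 11.05 and 10.63 in MI mice and 9.84, 9.23, 10.05 and 9.75 in the sham mice and rose by 0.95 (SE 0.23, adjusted p = 0.00754). The other 13 did not pass, among them Cldn5 at -0.33, Jam2 at -0.18 and Cd99 at 0.22. Jup had the largest difference of these, at 0.78 (adjusted p = 0.0682). The median of the list was -0.10. Ocln was not retained. Of 7 retained endothelial adhesion and mucin genes, 2 were higher. Alcam, a ligand of the lymphocyte receptor CD6, rose by 1.32 (SE 0.20, adjusted p = 6.38e-05). Its log2 difference was 0.69 with normexp and 0.38 with refitted spike-in constants, and passed in both (adjusted p = 0.00125 and 0.0227). Ackr1, the chemokine-binding receptor of venular endothelium, measured 7.09, 7.43, 7.78 and 6.70 in MI mice and 6.66, 6.22, 6.40 and 6.39 in the sham mice and rose by 0.83 (SE 0.23, adjusted p = 0.0227). The lowest MI mouse was just above the highest sham mouse. This call was lost after scaling to the 75th percentile (adjusted p = 0.0743) and without MI mouse 2 (0.0559), MI mouse 3 (0.123) or sham mouse 2 (0.0559). Glycam1 was not retained.

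TNF and IL-1 are the cytokines known to induce Sele, Icam1 and Vcam1 through NF-kB. Of 11 retained genes of this list, 6 were higher, with a median log2 fold change of 0.78. Il1b measured 9.36, 11.93, 11.37 and 11.14 in MI mice and 7.44, 7.30, 8.70 and 7.46 in the sham mice. It rose by 3.22 (SE 0.37, adjusted p = 6.80e-07), and MI mouse 1 was its lowest MI mouse. Tnf rose by 1.63 (SE 0.24, adjusted p = 4.06e-05), with MI mice 2 and 3 at 7.35 and 7.47 and MI mice 1 and 4 at 6.54 and 6.39. The log2 difference of Tnf was 0.81 with normexp, and with the refitted spike-in constants it was 0.45 and did not pass (adjusted p = 0.0686). That of Il1b was 2.43 with the refitted constants. Tnfaip3, an NF-kB target that feeds back on the pathway, rose by 1.26 (SE 0.24, adjusted p = 0.000635). Relb, Nfkb2 and Tnfrsf1a also passed. Il1a was not retained.

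**Figure D3:**
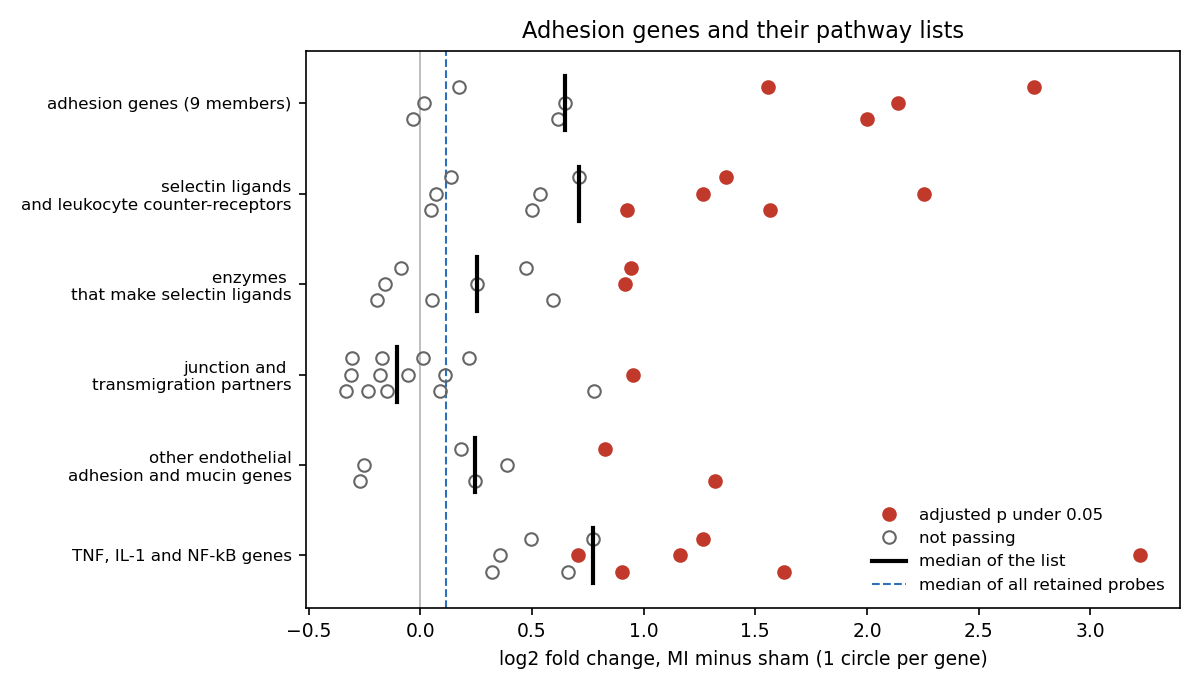
Log2 fold change (MI minus sham) of the 9 adhesion genes and of the retained genes of 5 pathway lists, 1 circle per gene. Filled red circles had an adjusted p under 0.05 and open circles did not, black bars are list medians and the dashed line is the median of all retained probes (0.12). Called genes numbered 4 of 9, 5 of 11, 2 of 9, 1 of 14, 2 of 7 and 6 of 11 from top to bottom.

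Of the marker lists of other cells, that of neutrophils differed most between the groups by its median log2 fold change. The single markers named from these lists were chosen after their values were seen. Of 9 neutrophil markers, 6 were higher. These include Ngp, which was retained through the MI mice alone, since it was well above background in no sham mouse. Of the 8 markers well above background on all 8 arrays, 5 were higher, and their median log2 difference was 2.80. The summed level of the list on the linear scale was 251204 to 369694 in MI mice and 76469 to 121133 in the sham mice. The median deviation of the list from the sham means was 2.60, 3.20, 3.28 and 2.20 log2 units in MI mice 1 to 4, so that MI mice 2 and 3 were highest, as they were for Selp and Sele. For Selplg, MI mice 3 and 4 were the highest. The order of mice was compared by eye after the values were seen and was not tested. Ptprc, the common leukocyte antigen CD45, measured 7.77, 8.22, 8.18 and 8.40 in MI mice and 7.22, 7.06, 7.15 and 6.75 in the sham mice and was 2.14-fold higher (95% interval of the log2 difference 0.66 to 1.53, adjusted p = 0.000906). Selplg, which leukocytes express, thus rose beside leukocyte markers, whose part in its change was not tested.

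Of 9 platelet markers, 2 were higher, Ppbp and Itga2b, with a median log2 fold change of 0.44. After scaling to the 75th percentile, Itga2b did not pass (adjusted p = 0.114). The summed level of the list was 20177 to 31131 in MI mice and 16128 to 18395 in the sham mice, without overlap. Pf4, which did not pass (log2 difference 0.53, adjusted p = 0.131), made up 88.6% to 92.7% of this sum, and without it the sum was 1894 to 2989 in MI mice and 1176 to 1540 in the sham mice. Of the 9 markers, 6 were well above background on all 8 arrays, and 1 of these, Ppbp, was higher. The median deviation of the list was 0.47, 0.87, 0.21 and 0.21 log2 units in MI mice 1 to 4, with MI mouse 2 the highest. The part of platelets in the change of Selp, which they express beside endothelium, was not tested. Of 7 retained markers of monocytes and macrophages, 2 were higher, Ccr2 and Cd14, with a median of 0.20. The other 5 did not pass: Fcgr1 at 0.67, Mrc1 at 0.20, Lyz2 at 0.15, Csf1r at -0.16 and Adgre1 at -0.24. Cd68 was not retained. Of the lymphocyte markers, Cd3d among 4 of T cells and Cd79b among 4 of B cells were higher, and Cd3g and Cd8a were not retained. No B cell marker passed after scaling to the 75th percentile, with quantile normalization, with normexp or with the refitted spike-in constants, and no T cell marker passed with the last.

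Of the 14 endothelial markers, Ecscr was higher and none was lower in limma, with 1 lower at an unadjusted p under 0.05 and none lower in significance analysis of microarrays. Their median was 0.10, or -0.03 after scaling to the 75th percentile, where Ecscr was higher and Flt1 and Sox17 were lower. Of all 34038 retained probes, that scaling called 2963 higher and 3010 lower. Their summed level was 81778 to 117907 in MI mice and 83319 to 115173 in the sham mice, which overlapped. By mouse, the median deviation of the endothelial list was 0.25, -0.25, 0.42 and 0.10 log2 units in MI mice 1 to 4. MI mouse 2 was the lowest and MI mouse 3 the highest, as for Pecam1 and Cdh5. This was not particular to endothelial genes, since the cardiomyocyte list lay at 0.15, -0.39, 0.21 and -0.19 in MI mice 1 to 4. Without MI mouse 2, the median log2 difference over all retained probes was 0.22 instead of 0.12. Of the 7 cardiomyocyte and the 7 fibroblast markers, none passed in limma or in significance analysis of microarrays, and 1 and 2 of them were lower at an unadjusted p under 0.05. Their medians were -0.07 and -0.44, and Pln was called lower after scaling to the 75th percentile (adjusted p = 0.00643). The fibroblast list of MI mouse 2 lay at -1.35, away from the other MI mice at -0.17 to 0.07. Of the 7 markers of smooth muscle and pericytes, 2 were higher, Acta2 and Cspg4, with a median of -0.02, and Rgs5 was called lower after scaling to the 75th percentile (adjusted p = 0.0236).

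**Figure D4:**
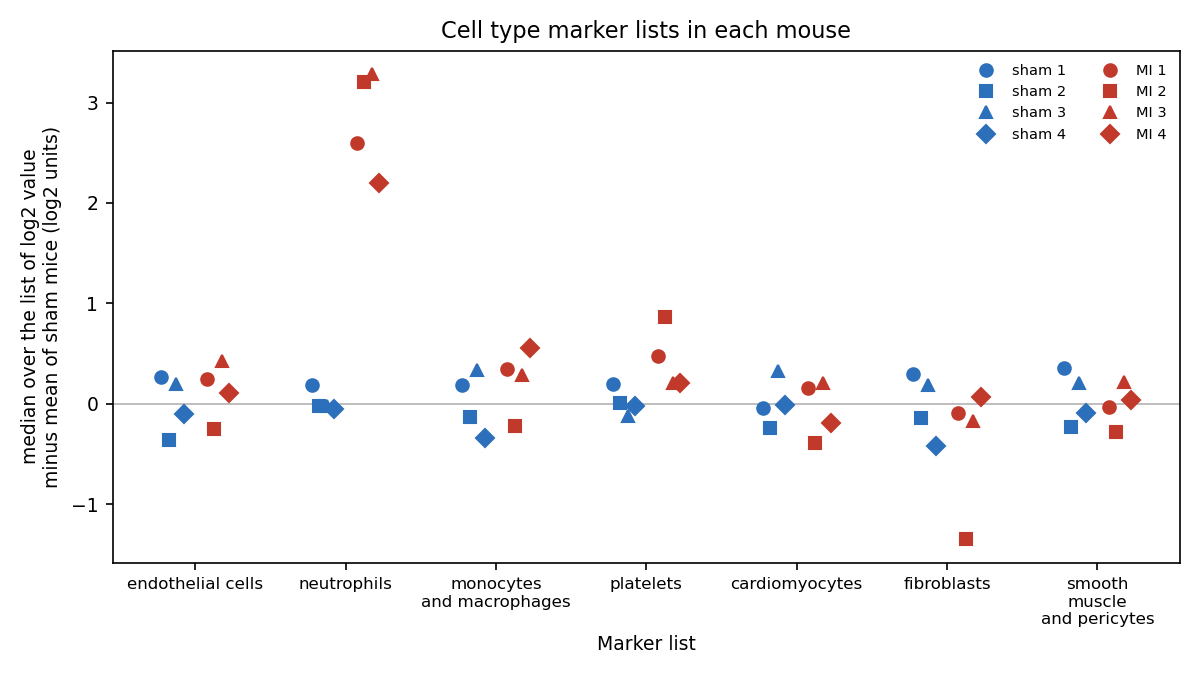
Median over each marker list of the log2 value minus the mean of the sham mice (log2 units), by mouse. Blue symbols are sham mice and red symbols MI mice, with the shape giving the replicate. The neutrophil list lies between 2.20 and 3.28 in MI mice, while the endothelial list lies between -0.25 and 0.42 in MI mice and overlaps the sham mice.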

How the data were processed

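Arrays of 4 MI mice and 4 sham-operated mice lay on 1 slide in 2 rows, each with 2 mice of either group, and groups were taken from the sample labels. The deposited intensities were processed signals of Feature Extraction 11.0.1.1, background-subtracted and detrended within each array, and not normalized between arrays. The authors' deposited log2 values were made with limma and vsn from spots well above background, normalized on spike-in RNA. Their scale and additive constant (3.163 to 19.58) were recovered for each array by fitting these values to the signals, with a misfit of at most 1.42e-05 on the log2 scale, and then applied to all spots. They were used because refitting the vsn model to the spike-ins left the constant undetermined: it was 166.1 to 256.5 with spots well above background on all arrays and 46.44 to 76.23 with all spike-in spots, while the shifts of the arrays differed by -0.05 to 0.03 from those of the authors. The refit was kept as an alternative chosen after seeing the data.

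Outlier-flagged spots were dropped and the remaining spots of each probe averaged. Of 55681 probes, the 34038 detected well above background on 4 or more arrays were retained. MI and sham-operated mice were compared in limma 3.58.1 (R 4.3.3) without covariates, with Benjamini-Hochberg adjustment over these probes, and single values with exact two-sided permutation tests. The number of arrays limits the precision. Significance analysis of microarrays was run with all 70 permutations. Gene symbols came from RefSeq accessions (26582 probes), and promoter sequences from RefSeq. Python 3.11.15 with numpy 2.4.6, scipy 1.17.1, pandas 2.3.3 and matplotlib 3.10.9 was used for the rest.

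The members, the gene lists and the motifs were chosen with earlier results of these data known. From each pathway list, up to 3 called genes with the largest log2 fold change are named with values, besides the members and Ptprc, and 1 list gene is not reported here. Alternatives of scale were scaling to the 75th percentile, a spike-in shift without constant, quantile normalization, normexp background correction with an offset of 50, and the authors' values. The normexp alternative started from median spot and background signals and was followed by quantile normalization. It thus differs from the main scale in more than the constant. Further alternatives were other filters on detection, the mean over probes of a gene, and blocks for replicate number and row. The last were each row alone, each mouse left out, significance analysis of microarrays and the methods' t-test.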

Additional observations from a re-analysis of the deposited data

Results flagged for a closer look

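In 42 groups of 4 mice, formed by the 9 members, Ptprc and the genes named from the pathway lists in MI and in sham-operated mice, the gap of the most extreme mouse to its nearest neighbour was compared with the range of the group. It exceeded Dixon's 95% critical value for 4 values in 2 groups, and chance alone flags about 1 group in 20. None of the 9 members was among them. Sham mouse 3 was the highest for Cd44, at 9.34 against 8.63 to 8.74 in the other sham-operated mice (ratio 0.847). The same mouse was the highest for Il1b, at 8.70 against 7.30 to 7.46 (ratio 0.882). It remained below every MI mouse for both genes.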

How the results depend on the processing

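Over the 24 alternatives, 3 to 6 of the 9 members passed the adjusted threshold and 2 to 4 were also over 2-fold, all of them higher in MI mice. Selp and Selplg passed under all 24 alternatives and Sele under all 23 in which its probe was tested. Detection on all 8 arrays left the Sele probe out. With the refitted spike-in constants, 2 members were over 2-fold (Selp and Selplg). Icam1 passed under 22 of the 24. Leaving out each mouse in turn gave 4 to 5 called members, 4 over 2-fold, and 13 to 19 called pathway genes. Against 16 called pathway genes, 10 were called with no filter on detection, 5 within array row 1 and 5 with the methods' t-test after Benjamini-Hochberg adjustment. A row also held fewer mice, and the cause of these lower counts was not tested. At an unadjusted p under 0.05, that t-test called 5337 of all probes, 1154 of them over 2-fold, and 749 after adjustment. Significance analysis of microarrays called 3875.

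The log2 difference of Esam turned negative with scaling to the 75th percentile (-0.11), quantile normalization (-0.030), normexp (-0.040) and within row 2 (-0.027), and was -0.10 to 0.17 with each mouse left out. That of Icam2 turned positive within row 1 (0.10) and was -0.14 to 0.042 with each mouse left out. Neither passed under any alternative.

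Replicate numbers were shared by the groups, but the labels give them no meaning and deviations of mice with the same number correlated at 0.238, 0.292, 0.143 and 0.0114. With the replicate block, 6 members passed, with Vcam1 (adjusted p = 0.0363) and Pecam1 (0.0210) added, 20 pathway genes were called, and 3945 probes were higher and 950 lower. Over all probes, calls were 1150 higher and 121 lower with the refitted constants and 3313 higher and 3722 lower with normexp. They were 2988 and 3154 with quantile normalization, 937 and 53 with no filter on detection, and 456 and 67 within array row 1. Signal over background limits Sele, of which 1 of 4 sham mice was well above background.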
